A study of Mus musculus with 550 samples.

Results

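The 7 lipoxygenase genes of the count table, Alox12, Alox12b, Alox12e, Alox15, Alox5, Alox8 and Aloxe3, were followed through single cells of mouse embryoid bodies that carried or lacked a de novo DNA methyltransferase. The family was selected on these data, because Alox12b and Alox12e were among the genes with the largest rise in the Dnmt3b knockout at day 9, so the values of that contrast are given as a description with no test. The 7 members were listed by name from 55228 genes in the table. Of 550 cells, 486 had at least 50000 reads, at least 2000 genes with a read and at most 50% mitochondrial reads, and were kept.

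Embryoid bodies are aggregates that embryonic stem cells form when leukemia inhibitory factor (LIF) is withdrawn, and their cells leave pluripotency for the first embryonic lineages. They were grown from E14 embryonic stem cells of strain 129/Ola in 3 genotypes, which were WT (no knockout), 3AKO (homozygous Dnmt3a knockout, Dnmt3a -/-) and 3BKO (the same for Dnmt3b, Dnmt3b -/-), and were collected at day 3 and day 9. At day 3 the kept cells numbered 79 of WT, 83 labelled 3AKO and 80 labelled 3BKO, and at day 9 they numbered 89 of WT, 88 of 3AKO and 67 of 3BKO. Full-length Smart-seq2 libraries, which carry no molecular identifiers, were made from single sorted cells in 2 batches, which gives 12 libraries of 1 genotype, day and batch each. Per the methods, many embryoid bodies of each clone were dissociated together, and the labels tie no cell to a clone or culture. Each genotype at a day therefore counted as 1 sample, and no test between genotypes was possible. At day 9 both batches of a genotype lie on 1 plate. Their agreement is given as a description and cannot replace such a test. Levels are reads summed over cells and divided by the summed reads of all genes, on the usual CPM scale, and their 95% intervals are exact Poisson intervals. Shares of cells carry exact Clopper-Pearson intervals, and both kinds cover counting error only. In summed cells, more expressing cells and more RNA per expressing cell cannot be told apart, so shares of cells are given beside levels.

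Lipoxygenases are iron enzymes that insert oxygen into polyunsaturated fatty acids such as arachidonic acid. Alox12b and Aloxe3 act in sequence in the epidermis, where they oxidise the linoleate of ceramides needed for the skin barrier, and Alox12e and Alox8 are also known from skin. Alox12 is the platelet type, Alox15 is known from macrophages and eosinophils, and Alox5, with its helper Alox5ap, begins leukotriene synthesis in leukocytes. None of them is among the usual markers of embryonic stem cells or the epiblast.

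Of the 7 members, 6 lie on mouse chromosome 11 in a pair of clusters. In GRCm38, Aloxe3 (chr11:69125896-69149115), Alox12b (chr11:69156989-69169792) and Alox8 (chr11:69183932-69197843) form the first. Alox12 (chr11:70241457-70255353), Alox12e (chr11:70315610-70322628) and Alox15 (chr11:70344152-70352031) form the second. Alox5 stands apart at chr6:116410077-116461178. The starts of Alox12b and Alox12e are 1166 kb apart, whereas Alox12b is 31.1 kb from the start of Aloxe3 and Alox12e is 29.4 kb from that of Alox15. No member shares its span with another annotated gene.

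The stretches just before the annotated starts of the 2 genes that rose are shown beside those of a cluster neighbour of each that could not be tested. They come from RefSeq (GRCm38.p6), which had entries for 5 of the 7 members, and end before the first base of the earlier of the RefSeq and GENCODE starts. The dinucleotide CG, the site of DNA methylation, is in capitals.
Alox12b, chr11:69156822-69156988, plus strand: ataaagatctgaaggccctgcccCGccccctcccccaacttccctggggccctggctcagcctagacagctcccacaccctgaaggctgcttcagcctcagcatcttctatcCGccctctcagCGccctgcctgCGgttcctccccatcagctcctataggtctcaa
Alox8, chr11:69197844-69198093, minus strand: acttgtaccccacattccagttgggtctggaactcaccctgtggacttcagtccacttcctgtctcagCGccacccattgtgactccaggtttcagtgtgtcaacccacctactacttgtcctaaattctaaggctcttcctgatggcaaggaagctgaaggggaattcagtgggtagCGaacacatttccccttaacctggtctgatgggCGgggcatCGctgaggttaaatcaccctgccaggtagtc
Alox12e, chr11:70322629-70322780, minus strand: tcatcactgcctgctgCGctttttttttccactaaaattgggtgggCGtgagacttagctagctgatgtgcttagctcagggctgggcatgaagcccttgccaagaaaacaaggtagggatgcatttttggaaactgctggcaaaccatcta
Alox12, chr11:70255371-70255620, minus strand: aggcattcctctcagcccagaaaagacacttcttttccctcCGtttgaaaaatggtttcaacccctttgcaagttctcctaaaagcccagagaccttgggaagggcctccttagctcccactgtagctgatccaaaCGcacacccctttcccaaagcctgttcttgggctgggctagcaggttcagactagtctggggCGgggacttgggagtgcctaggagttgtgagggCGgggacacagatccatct
Over the full RefSeq window of 300 bases, Alox12b held 15 CG dinucleotides, with an observed to expected ratio of 0.506, and 65.4% of 32851 mouse promoters of that length held fewer. Alox12e held 3, with a ratio of 0.157, and 23.3% of promoters held fewer. Over this window, the members that rose therefore lay on opposite sides of the median promoter, which held 7. Of these CG, 4 of the 15 for Alox12b and 2 of the 3 for Alox12e lie in the stretch printed above. The RefSeq start of Alox12b lies 83 bases after its GENCODE start, so the other CG of its window lie within the GENCODE gene. Alox8 held 5, Alox5 held 7 and Alox12 held 8. None of the 5 windows held the letters TATAAA (in 13.6% of all promoters), the octamer ATTTGCAT (in 1.74%) or TCAAGGTCA, a form of the ESRRB site (in 0.423%), on either strand.

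Alox12b, the first enzyme of the epidermal pair, was nearly silent outside 3BKO day 9 cells. It had no read in either WT library at day 3, and at day 9 it stood at 3.02 CPM in WT batch 1 and at 0 in WT batch 2. In 3AKO at day 9 it stood at 0.143 CPM in batch 1 and at 0 in batch 2. In 3BKO at day 9 it stood at 46.9 CPM (43.4 to 50.7) in batch 1 and 43.2 CPM (40.1 to 46.5) in batch 2. Both 3BKO libraries lay above all 10 others. Summed over batches, Alox12b was at 44.9 CPM in 3BKO and 1.98 CPM in WT, 22.7-fold higher (17.8 to 29.3), and the log2 ratio of CPM + 1 was 3.95, with 3.58 in batch 1 and 5.47 in batch 2. A single cell gave 71% of the WT reads, and without the cell holding most reads in each group the log2 ratio was 4.70.

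Alox12e, the epidermal-type lipoxygenase of the second cluster, rose beside it. At day 9 it stood at 5.82 and 6.44 CPM in the WT libraries of batches 1 and 2. In 3AKO it stood at 3.30 and 4.75 CPM. In 3BKO it stood at 108 CPM (103 to 114) and 84.1 CPM (79.7 to 88.6). The 3BKO libraries again lay above all others, and each 3AKO library lay below the WT library of its batch. The summed levels of 95.2 CPM in 3BKO and 6.03 CPM in WT differed 15.8-fold (13.7 to 18.2), with a log2 ratio of 3.77 and of 4.0 and 3.51 in the batches. Here 62.9% of the WT reads came from 1 cell, and without the top cell of each group the log2 ratio was 4.72. Per kilobase of exon, on a scale that allows genes to be compared, Alox12e was at 33.7 and Alox12b at 18.5 CPM per kb in 3BKO.

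Calls were made with limits on detection and size. At least 20% of cells had to hold a read, in each batch and in at least 1 of the groups compared, and the log2 ratio had to be 1 or more, or -1 or less, in both batches. Alox12b and Alox12e passed the detection limit through 3BKO alone, so a gene that passed in this way had to differ, and both were called higher. The same limits called 264 of 9235 tested genes (2.86%) higher in 3BKO than in WT, and 724 (7.84%) changed in either direction. The other 5 members had reads in too few cells to be tested. In 3AKO against WT no member reached the detection limit, where 2.65% of tested genes changed in either direction.

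Against 3AKO, which shares the 3BKO cells with the comparison above, Alox12b and Alox12e were again called higher, where 4.56% of tested genes were. Alox12e was 24.4-fold higher in 3BKO (19.9 to 30.4). The fold for Alox12b, 536 (148 to 4431), rests on 2 reads in 3AKO.

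**Figure D1:**
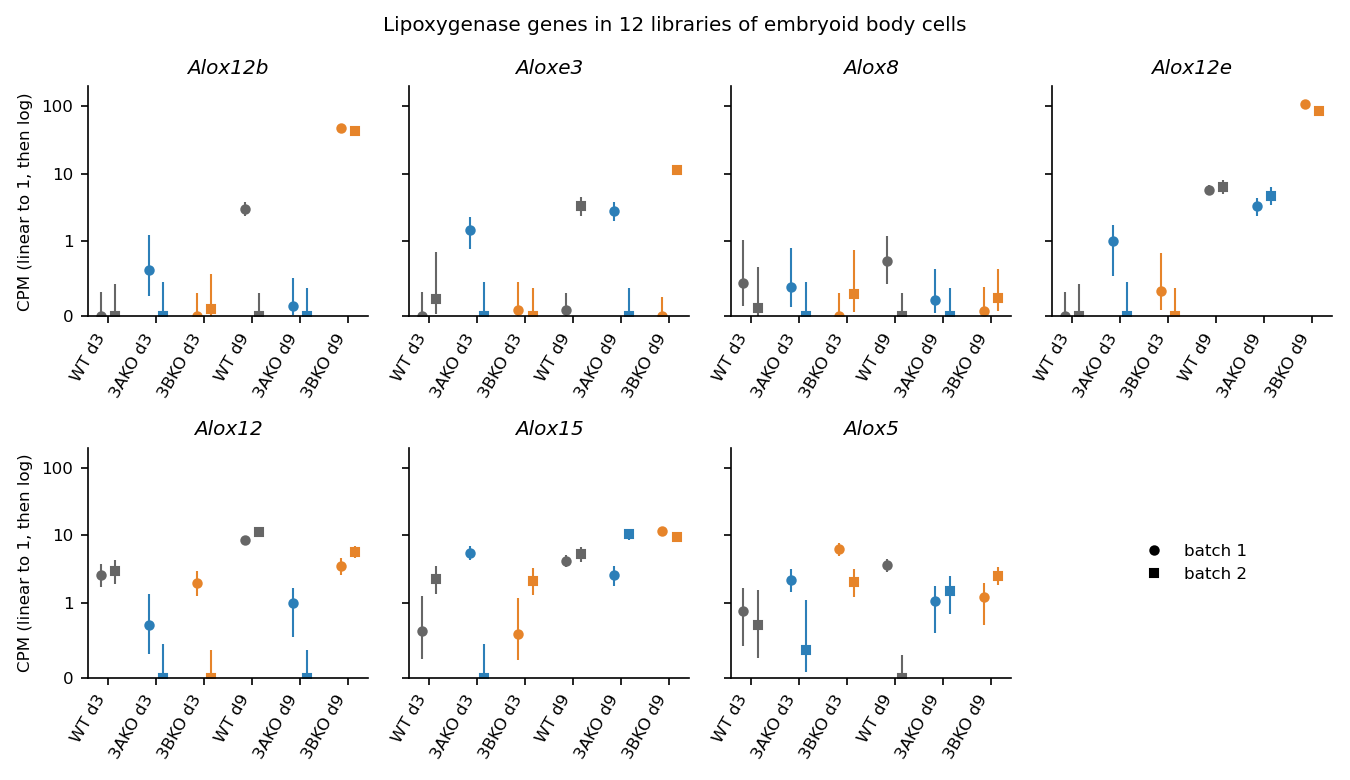
Level of each lipoxygenase gene in 12 libraries, with 1 panel a gene. The vertical axis is CPM of the summed kept cells, linear up to 1 and logarithmic above it, circles are batch 1, squares are batch 2, and bars are exact 95% Poisson intervals. Alox12b and Alox12e stand between 43.2 and 108 CPM in the 3BKO day 9 libraries, and no other library holds them above 6.44 CPM.

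The rise was spread over many cells. In 3BKO at day 9, 34 of 67 cells held an Alox12b read and 36 held an Alox12e read, against 3 and 5 of 89 WT cells and 2 and 3 of 88 3AKO cells. After each cell was thinned to 50000 reads, the shares were 44.8% (32.6 to 57.4) for Alox12b and 50.7% (38.2 to 63.2) for Alox12e in 3BKO. In WT the thinned shares were 3.37% (0.701 to 9.54) and 4.49% (1.24 to 11.1), which lie well below. The batches were alike, with 21 of 46 and 13 of 21 3BKO cells for Alox12b and 24 of 46 and 12 of 21 for Alox12e. Of the positive 3BKO cells, 32 of 34 held at least 5 reads of Alox12b and 34 of 36 held at least 5 of Alox12e. The cell with most Alox12b reads held 12.4% of them, and the cell with most Alox12e reads held 11.7%.

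The level within positive cells varied widely. In 3BKO the median positive cell held 75.0 CPM of Alox12b, and the highest 332 CPM. For Alox12e the median was 155 CPM and the highest 914 CPM. The few positive WT cells reached 146 CPM of Alox12b and 266 CPM of Alox12e, within the range of 3BKO cells.

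**Figure D2:**
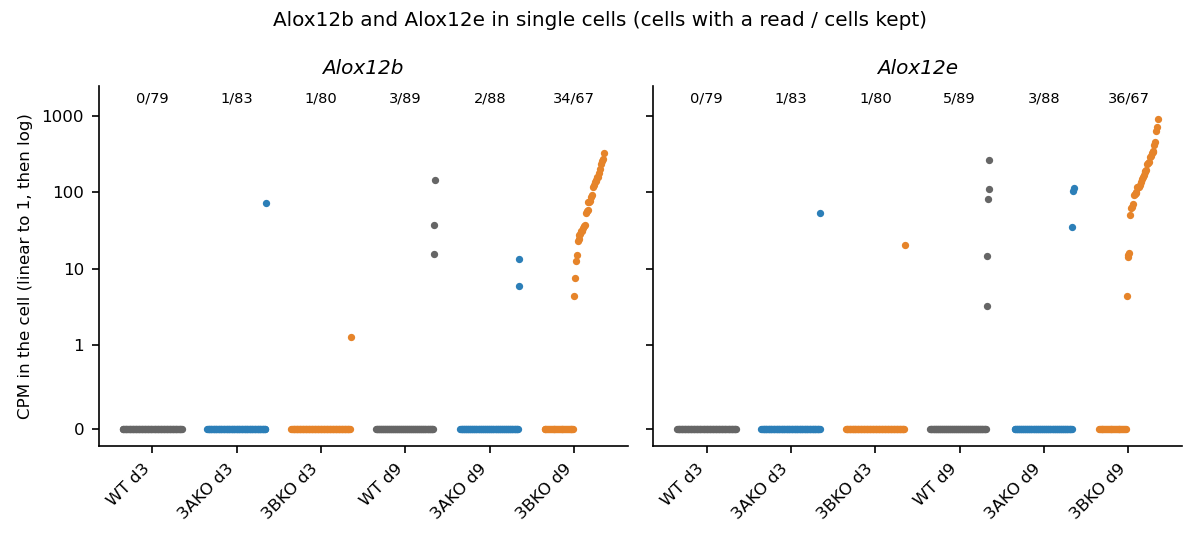
Alox12b and Alox12e in every kept cell, by genotype and day, with cells in rising order within a group. The vertical axis is CPM in the cell, linear up to 1 and logarithmic above it, and the numbers above give cells with a read over cells kept. A positive cell is rare in each group except 3BKO at day 9, where 34 and 36 of 67 cells stand above 0.

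The same cells did not always hold both transcripts. In 3BKO at day 9, 23 cells held both, 11 held Alox12b only, 13 held Alox12e only and 20 held neither. If the genes were independent, 18.3 cells would hold both. After thinning, 19 cells held both, where 15.2 would if independent. At least 1 of the pair was held by 70.1% (57.7 to 80.7) of cells. In batch 1 the share with either was 67.4% and in batch 2 it was 76.2%. Across the 67 cells Pearson's r of log2(CPM + 1) was 0.22, a weak relation in sparse counts that is given as a description. Across the 12 libraries r was 0.90, a value set by the 3BKO day 9 libraries, which share genotype and plate. In cells with both, Alox12e had the higher CPM in 17 of 23.

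**Figure D3:**
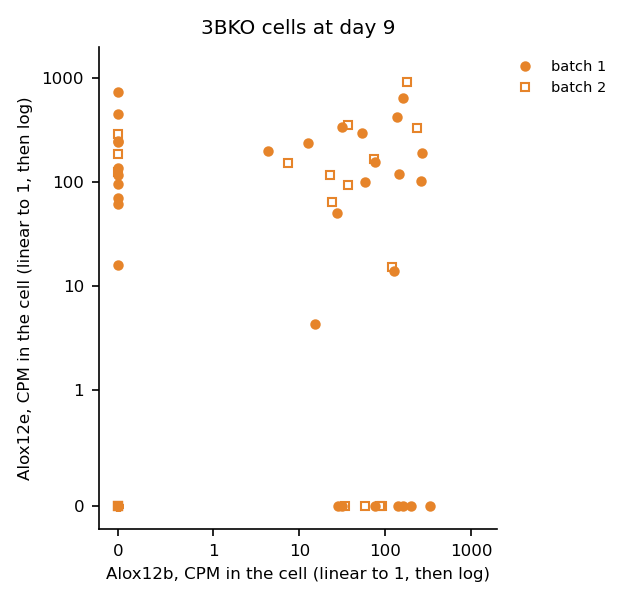
Alox12b against Alox12e in the 67 kept 3BKO cells at day 9. Both axes are CPM in the cell, linear up to 1 and logarithmic above it, filled circles are batch 1 and open squares are batch 2. Cells lie along both axes as well as in the field between them, with 11 cells positive for Alox12b only and 13 for Alox12e only.

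Positive and negative 3BKO cells were of similar depth. The 34 cells with Alox12b had a median of 327322 reads and the 33 without it 373173, with medians of 5959 and 5691 genes. The 36 cells with Alox12e had a median of 327322 reads and the 31 without it 382207. The median mitochondrial share was 4.62% with Alox12b and 3.76% without it.

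The cluster neighbours had reads in few cells. Aloxe3, the enzyme that acts on the product of Alox12b, had no read in 3BKO batch 1 and 11.5 CPM (9.92 to 13.3) in 3BKO batch 2, from 4 of 21 cells. In WT at day 9 it stood at 0.0875 and 3.35 CPM, and in 3AKO at 2.79 CPM and 0. Its log2 ratio to WT was thus -0.12 and 1.53 in the batches, so the batches differ in direction. Alox8, known in mouse for oxygenating arachidonic acid in skin, stayed below 1 CPM in all 12 libraries and never exceeded 5 positive cells in 1 library.

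Alox12, the platelet-type gene of the second cluster, had its highest level in WT at day 9. It stood there at 8.53 CPM in batch 1 and 11.2 CPM in batch 2, from 4 and 5 cells. In 3BKO it stood at 3.49 and 5.66 CPM, from 2 cells and 1 cell. In 3AKO it stood at 1.00 CPM from 2 cells and at 0. The order WT, 3BKO, 3AKO held in both batches, with at most 9 positive cells in a group and with shares whose intervals overlap, 7.87% (3.22 to 15.5) in WT and 4.48% (0.933 to 12.5) in 3BKO after thinning. Alox12e was held by 33.3% of the cells with Alox12 in both genotypes, 3 cells in WT and 1 cell in 3BKO. Among cells without Alox12 it was held by 2.5% in WT and 54.7% in 3BKO.

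Alox15, next to Alox12e, was at 10.4 CPM (9.25 to 11.6) in 3BKO, 4.57 CPM (3.88 to 5.33) in WT and 5.83 CPM (4.90 to 6.88) in 3AKO at day 9. Positive cells numbered 7 of 67, 3 of 89 and 6 of 88, and the thinned shares of 8.96% (3.36 to 18.5) in 3BKO and 3.37% (0.701 to 9.54) in WT overlap. In batch 2 the 3AKO library, at 10.4 CPM, stood as high as the 3BKO library at 9.42 CPM. All 7 3BKO cells with Alox15 held Alox12b, and 5 of them held Alox12e. If the genes were independent, 3.55 and 3.76 such cells would be found.

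Alox5, the leukotriene enzyme on chromosome 6, stood at 1.21 and 2.52 CPM in 3BKO at day 9. In WT it stood at 3.63 CPM, all 83 reads from 1 cell, and at 0. Alox5ap, the membrane protein that presents substrate to Alox5 and the only other gene of the table whose name begins with Alox, was at 2.97 CPM in 3BKO, 2.47 CPM in WT and 2.39 CPM in 3AKO. It had reads in 12 of 67, 3 of 89 and 8 of 88 cells, and 189 of its exon bases lie in another gene model, whose reads cannot be told apart without strand.

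Counted over the family, 49 of 67 3BKO cells (73.1%) held a read of at least 1 member at day 9, against 23.6% in WT and 20.5% in 3AKO. At least 3 members were found in 8 3BKO cells, 1 WT cell and no 3AKO cell. Alox12b and Alox12e made up 85.8% of the family's reads in 3BKO, 30.7% in WT and 29.7% in 3AKO.

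At day 3 the mutant labels of batch 2 are in doubt. Dnmt3a stood at 25.8 CPM in the 3AKO library of batch 1 but at 335 CPM in that of batch 2, and at 587 and 12.8 CPM in the 3BKO libraries of batches 1 and 2. The low libraries share plate 211 and the high ones plate 210, so day 3 values are given under the label and by plate. Dnmt3b was at 134 CPM in plate 210, 228 CPM in plate 211 and 567 CPM in WT at day 3. At day 9 the labels held, with Dnmt3a at 25.2 CPM in 3AKO, 63 in 3BKO and 166 in WT, and Dnmt3b at 16.4 CPM in 3BKO, 252 in 3AKO and 167 in WT. The 25.2 CPM of Dnmt3a and the 16.4 CPM of Dnmt3b are reads of the targeted gene that remain in its own knockout.

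The pair was nearly absent at day 3 under any label or plate. Alox12b had 8 reads in 1 cell labelled 3AKO in batch 1, 1 read in 1 cell labelled 3BKO in batch 2 and none in the other 4 libraries. Alox12e had 13 reads in 1 cell labelled 3AKO and 4 reads in 1 cell labelled 3BKO, both in batch 1. Plate 210, where Dnmt3b was lower, held 4 Alox12e reads in 1 of 79 cells. None of its 79 cells held an Alox12b read, which allows a share of cells with a read of up to 3.80% by the limit of 3 cells and of up to 4.56% by the exact interval. Under the label 3BKO, Alox12e was 522-fold higher at day 9 than at day 3 (204 to 1916), and Alox12b 985-fold (176 to 38933), from 4 reads and 1 read at day 3. The single Alox12b read lay in plate 211. Set against plate 210 instead, Alox12e was 479-fold higher (187 to 1759), and Alox12b at least 301-fold higher against a floor of 3 counts over the plate, with an exact lower bound of 245. Both were called higher between days, where 6.77% of tested genes were under the label and 6.79% against plate 210.

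WT cells moved the same way from a floor of 0. Alox12e went from no read at day 3 to 6.03 CPM at day 9, at least 39.6-fold higher against a floor of 3 counts over the group, and Alox12b to 1.98 CPM, at least 13-fold higher by the same floor. The exact intervals of these ratios reached down to 31.9 and 10.3. The levels at day 9 rest on 5 and 3 cells, and neither gene reached the detection limit in WT. In the order of group levels, both genes ran from 3BKO day 9 to WT day 9, and the 3BKO interval lay above all others. For Alox12b the levels of 3AKO at both days and of the label 3BKO at day 3, 0.383, 0.0838 and 0.0456 CPM, have overlapping intervals, and WT at day 9 spans 0 to 3.02 CPM over its batches. For Alox12e, WT (5.24 to 6.90) and 3AKO (3.15 to 4.78) at day 9 do not overlap in their counting intervals but rest on 5 and 3 cells.

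Alox15 differed from the pair at day 3. It had reads in 10 of 58 cells labelled 3AKO in batch 1 and in 3 of 26 cells labelled 3BKO in batch 2. These libraries form plate 211, where it stood at 4.05 CPM (3.27 to 4.97). In plate 210 it had 7 reads in 1 of 79 cells (0.348 CPM, 0.140 to 0.717), and in WT 26 reads in 2 of 79 cells (1.32 CPM, 0.862 to 1.93). After thinning, the shares were 8.33% (3.42 to 16.4) in plate 211 and 2.53% (0.308 to 8.85) in WT, and these intervals overlap. Alox12 stood at 2.58 CPM (1.73 to 3.70) in WT batch 1 at day 3, from 6 cells. In WT batch 2 it stood at 2.95 CPM, all from 1 cell. The mutant libraries of that day ran from 0 to 1.99 CPM (1.28 to 2.96), and the interval of the highest overlaps that of WT batch 1. Alox5 reached 6.22 CPM in the 3BKO library of batch 1, all from 1 cell.

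The WT cells with a read of either gene were set beside the other WT cells. The 3 cells with Alox12b and the 5 with Alox12e were 8 different cells, and all 8 lay above the WT median of 687 CPM of Zfp42, a marker of naive pluripotency. Of the 8, 7 lay above the WT median of Nanog, 5 above that of Pou5f1, 1 above that of Dnmt3a and 2 above that of Dnmt3b. Their median Dnmt3b was 1.23 CPM, and that of the 81 other WT cells was 73.7 CPM. These medians come from 8 cells of 1 sample. In 3AKO, 2 of the 4 positive cells lay above the group median of Zfp42 and 2 above that of Dnmt3b. There the order of Dnmt3b was the opposite, with a median of 176 CPM in the 4 positive cells and 92.7 CPM in the 84 others.

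Zfp42 was itself higher in 3BKO, at 2269 CPM against 963 CPM in WT, and its part in the rise of the pair was not tested. Cells were split at the WT median, which does not match them on Zfp42. Above it the median Zfp42 was 2650 CPM in 3BKO and 1338 CPM in WT, and at or below it 437 and 25.4 CPM. Above that level, 30 of 60 3BKO cells held Alox12b and 31 held Alox12e, against 3 and 5 of 44 WT cells. The log2 ratios in these cells were 3.32 and 2.84, lower than over all cells. At or below it, 4 and 5 of 7 3BKO cells were positive. None of the 45 WT cells was, which allows a share of up to 6.67% by the limit of 3 cells and of up to 7.87% by the exact interval. Since Zfp42 differed between the genotypes on both sides, these shares are not a comparison at equal Zfp42.

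**Figure D4:**
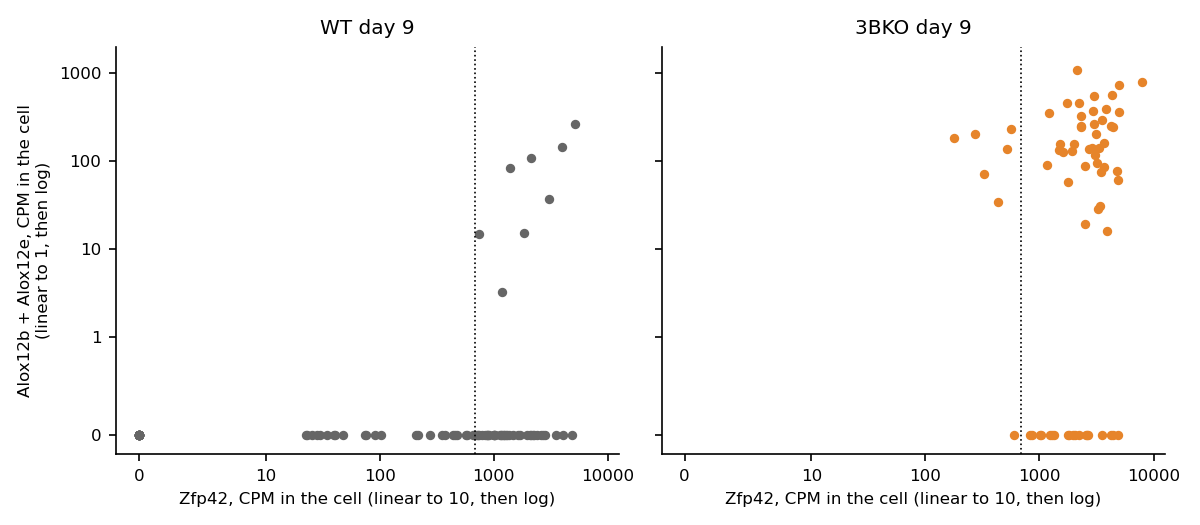
Summed CPM of Alox12b and Alox12e against Zfp42 in each kept day 9 cell of WT and 3BKO. The vertical axis is linear up to 1 and the horizontal axis linear up to 10, both are logarithmic above that, and the dotted line is the WT median of Zfp42, 687 CPM. The 8 positive WT cells all lie right of the line, and 3BKO cells are positive on both sides.

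Several defining markers of the tissues in which lipoxygenases are known had no read in 3BKO, while others of the same lists had reads. Of 9 keratinocyte markers, Trp63, Ivl and Dsg1a had no read in 3BKO and Krt5 and Krt14 had 1 read each. Krt10, which shares exon bases with another gene model, had reads in 22 of 67 3BKO cells, at 13.9 CPM against 11.7 in WT. Krt1 stood at 1.9 CPM in 3BKO and 1.03 in WT, and Lor at 1.12 and 2.07 CPM. The summed level of the list was 36 CPM in 3BKO, 23.8 in WT and 19.8 in 3AKO. Of the 9, 2 could be tested in 3BKO against WT, and 1 was called higher. It was Sfn, an epithelial cell cycle regulator, at 19 against 7.78 CPM in WT. At least 3 keratinocyte markers were found in 2 of 67 3BKO cells and 5 of 89 WT cells. Of 7 leukocyte markers, 5 had no read in 3BKO or WT, Ptprc, Csf1r, Itgam, Adgre1 and Lyz2. Cd68, a lysosomal protein and the 1 leukocyte marker that could be tested, was called higher at 92.2 against 38.3 CPM. Spi1 had reads in 4 3BKO cells and 5 WT cells, at 1.62 and 3.27 CPM. The 5 megakaryocyte markers had no read in 3BKO. Pluripotent markers were present in all groups, and 8 of 8 could be tested in 3BKO against WT. Of these, 2 were called higher (Zfp42 and Klf4) and none lower, where 2.86% of all tested genes were called higher. The median log2 ratio of the 8 was 0.88, against -0.08 over all tested genes. Of 4 neural ectoderm markers, Sox1 and Nes had no read in 3BKO and 5.51 and 1.29 CPM in WT. Pax6 stood at 6.47 against 25.1 CPM, and Tubb3 at 162 against 120 CPM. The 5 meso-endoderm markers summed to 1.12 CPM in 3BKO and 38.7 CPM in WT, and none could be tested. The part of cell type in the rise of the pair was not tested.

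The enzymes and receptors around the lipoxygenases were read against all tested genes. Of 36 genes of lipid mediator metabolism, 14 could be tested in 3BKO against WT, and 1 (7.14%) was called higher and none lower, where 7.84% of all tested genes were called in either direction. Their median log2 ratio was 0.17, against -0.08 over all tested genes. Ptgds, a prostaglandin D synthase, was the one called higher, at 26.9 against 11.1 CPM (log2 ratio 1.21). Ptges2, a prostaglandin E synthase, had a log2 ratio of 1.28. It missed the call because its ratio was 1.47 in batch 1 but 0.988 in batch 2. Of the 14, 9 had a log2 ratio above 0 and 5 had one below 0. Gpx4, which reduces lipid hydroperoxides, was at 1492 against 1446 CPM, a log2 ratio of 0.05. The leukotriene enzyme Ltc4s and the receptors Ltb4r1, Cysltr1, Gpr31b and Fpr2 had no read in either genotype at day 9. Of 12 skin barrier genes, 4 could be tested and none was called. Abca12, Pnpla1 and Nipal4 had no read in 3BKO or WT, and Pnpla1 and Nipal4 had 33 and 22 reads in 1 3AKO cell each. Tgm1, a transglutaminase of the cornified envelope, named after its values were seen, had reads in 10 of 67 3BKO cells and 1 of 89 WT cells, at 7.49 and 0.517 CPM. It missed the detection limit, and its log2 ratio was 4.10 in batch 1 and -1.33 in batch 2.

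In 3AKO against WT, 3 of 15 tested lipid mediator genes were called higher and none lower, where 1.07% of all tested genes were higher. They were Fads1 (log2 ratio 1.23) and Fads2 (1.20), the desaturases that make long polyunsaturated fatty acids, and Ptges2 (1.44), a prostaglandin E synthase. In 3BKO against 3AKO, 3 of 15 were called, where 9.46% of all tested genes were in either direction. Ptgds was higher (2.46), and Fads2 (-2.18) and Ephx2 (-1.99), an epoxide hydrolase, were lower. Ptges2 was not called there, with a log2 ratio of -0.15. None of these genes shares exon bases with another gene model.

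Within 300 kb of a member, the share of called genes was close to that over all tested genes. In that window, 76 other protein-coding genes had a row and 28 could be tested. Of these, 1 was called higher, near Alox5, and 1 lower in 3BKO against WT, together 7.14% against 7.84% of all tested genes. Around the chromosome 11 clusters none of 25 was called higher, where 2.86% of all tested genes were. Within 1 Mb of those clusters, 2 of 54 (3.70%) were called higher, Cd68 and Sox15. In the same window 3 were called lower, Rpain, Tmem107 and Tmem256, together 9.26% in either direction. Around Aloxe3, Alox12b and Alox8 the median log2 ratio of 13 tested genes was -0.64, and around Alox12, Alox12e and Alox15 that of 12 was -0.43, against -0.08 over all genes. Tmem107, a ciliary membrane protein whose start lies 86.2 kb from that of Alox12b, was lower, at 6.21 against 39.9 CPM (log2 ratio -2.51). The gene called higher was Gm5580, a predicted gene near Alox5, with a log2 ratio of 3.09, 3.79 in batch 1 and 1.34 in batch 2.

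**Figure D5:**
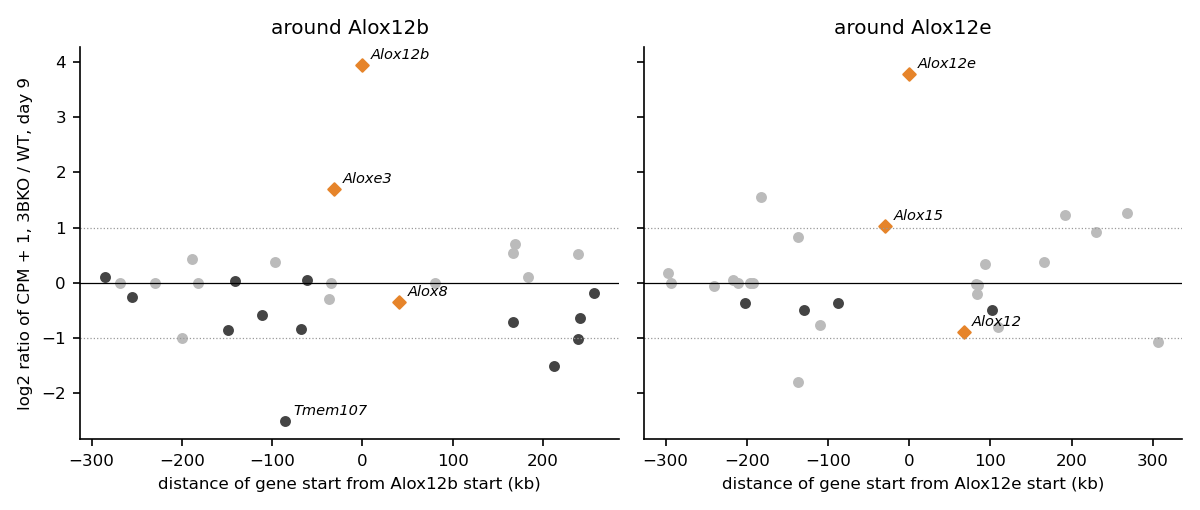
Log2 ratio of CPM + 1 in 3BKO against WT at day 9 for protein-coding genes within 300 kb of Alox12b or Alox12e, against the distance of the gene's start from that of the lipoxygenase in kb, positive in its direction of transcription. Orange diamonds are lipoxygenases, dark points genes detected in enough cells to be tested, grey points the rest, and dotted lines mark ratios of -1 and 1. Alox12b (3.95) and Alox12e (3.77) stand alone above 2 in their surroundings, and Tmem107 (-2.51) is the lowest.

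By Pearson's r of log2(CPM + 1) over 12 libraries, among 12627 genes, the genes most like Alox12b were Cd74 (0.95), Tex19.1 (0.95), Gm16048 (0.94), Apod (0.94) and Dnah11 (0.94). Those most like Alox12e were Cdc5l (0.95), Hist1h2ac (0.95), Gm7789 (0.95), Nanog (0.95) and Lnx1 (0.94). The lists share no gene. Tex19.1, which acts in germ and pluripotent cells, stood at 367 CPM in 3BKO at day 9 and between 34.9 and 67.6 CPM in the other groups. Nanog stood at 1004 CPM in 3BKO, 561 in WT and 438 in 3AKO at day 9 and between 213 and 323 CPM at day 3. The libraries share plates and depth within a genotype and day, and Cd74, Gm16048, Dnah11, Cdc5l, Hist1h2ac and Lnx1 share exon bases with other gene models.

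The kept cells held a median of 263902 reads (54720 to 1450202), and group sums ran from 19713905 to 34821361 reads. The 3BKO day 9 libraries stood apart in that they held no read of the Y-linked genes Eif2s3y and Ddx3y, which WT and 3AKO held at day 9. Plate 210 at day 3 held 1 Eif2s3y read and no Ddx3y read. The part of this difference between the lines in the rise of Alox12b and Alox12e was not tested, and genotype, plate and line cannot be told apart at day 9.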

How the data were processed

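Single cells of embryoid bodies were sorted into plates and profiled with Smart-seq2 and 75-base single-end reads. The authors deposited whole-number read counts per gene and cell, not normalized. Per the methods and the submitters' processing notes, reads were trimmed (Trim Galore 0.5.0), aligned to GRCm38 (STAR 2.7.1a) and counted over exons by gene name (featureCounts 1.6.1, GENCODE annotation), without reads that map to several places, so that reads shared by near-identical genes are lost. Strand was not used, as far as stated.

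Cells were mapped to genotype, day, batch and plate by their titles, and 26 columns of empty wells and small bulk samples were left out. No 2 cells had identical counts, and no doublet caller was run on the sorted cells. Counts were summed per group and per batch and scaled to CPM, ratios used log2(CPM + 1), and shares used cells thinned to 50000 reads. The limits of a call were at least 20% of cells and a log2 ratio of 1 in both batches. With 1 sample a group, no p-value was computed. Positions are from GENCODE vM21 (GRCm38), in which 97.0% of names matched, and promoters from RefSeq. The analysis used Python 3.11.15, and edgeR 4.0.16 and DESeq2 1.42.0 for scaling factors only. Members, gene lists and motifs were chosen with earlier results of these data known. All members, called genes of the lists and called neighbours were named, with the 5 genes most like each called member. The alternatives were cell filters, single batches, scaling, pseudocounts, thinning, detection limits and distances.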

Additional observations from a re-analysis of the deposited data

Results flagged for a closer look

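Alox12e was flagged because its level relative to WT at day 9 moved in opposite directions in the knockouts in both batches. The log2 ratio was 4.0 and 3.51 in 3BKO and -0.67 and -0.37 in 3AKO, a gap of 4.30 over the summed batches. The difference was not tested, since each genotype is 1 sample, and the 3AKO side rests on 3 cells with a read against 5 in WT.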

How the results depend on the processing

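Alox12b and Alox12e were the members past the limits at the other detection limits (10% and 40%), at the other pseudocounts and without the cell filter. The family was selected on these data, so the repeated calls are a description. The log2 ratios of Alox12b and Alox12e, 3.95 and 3.77 in 3BKO against WT at day 9, stayed positive under all alternatives. In batch 1 alone they were 3.58 and 4.0, and in batch 2 alone 5.47 and 3.51. A pseudocount of 10 CPM gave 2.20 and 2.71, and one of 0.1 CPM gave 4.44 for Alox12b. Without the cell holding most reads of the gene in each group they were 4.70 and 4.72, since 71% and 62.9% of the WT reads came from 1 cell. The mean of single-cell CPM gave 4.22 and thinned cells 4.34 for Alox12e. Only cells above the WT median of Zfp42, an alternative chosen after seeing the data, gave 3.32 and 2.84. Scaling by TMM or median-ratio factors stayed within the counting intervals. The difference in thinned shares, 41.4 percentage points for Alox12b and 46.3 for Alox12e, was 21.3 for Alox12b when at least 5 reads were asked for. Neighbour genes past the limits numbered 2 of 28 tested within 300 kb (7.14%), 2 of 8 within 100 kb (25%) and 6 of 63 within 1 Mb (9.52%). Over all tested genes the share was 7.84%. No paired analysis was possible because no result comes from a test. Members with fewer than 10 positive cells in a group are limited by cell number: Aloxe3 changed sign between batches, and Alox5 and Alox8 did so too.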
